A study of Mus musculus with 6 samples.

Results

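The genes described here are 9 interferon-stimulated genes and interferon-signalling factors of the mouse, found by symbol among the 24493 genes of the deposited expression table; all 9 were present. They are the transcription factors Irf1, Irf7, Irf9 and Stat2 and the antiviral effectors Bst2, Oasl1, Ifit1, Ifit2 and Ifit3. The 6 libraries hold RNA of KPCY cells, mouse pancreatic tumour cells of strain C57BL/6 that carry a yellow fluorescent lineage label. All had been transduced with a short hairpin RNA: the control shNT (n = 2), shPthlh oligo #1 (hairpin 1, n = 2) or shPthlh oligo #2 (hairpin 2, n = 2), the last pair directed at Pthlh, the gene of parathyroid hormone-like hormone. The design speaks of more than one parental clone without tying a library to either, and the labels give both tumour cells sorted in vivo and maintenance in DMEM, so which of these the RNA came from is not settled. Nothing in the labels makes the libraries of a group independent cultures or mice, so a p-value here measures spread among libraries that could be purely technical.

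Type I interferons bind the receptor pair Ifnar1 and Ifnar2, whose kinases Jak1 and Tyk2 phosphorylate STAT proteins, Stat2 among them. Stat2 and Irf9 are subunits of the complex ISGF3, which binds the interferon-stimulated response element (ISRE) in front of antiviral genes, while the interferon-gamma pathway acts through a different element, GAS, and drives genes such as Irf1. Irf7 is itself induced and amplifies type I interferon production. In tumours, part of this programme can run at a low tonic level without infection.

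Matches to the DNA elements that these factors bind are shown first, because the genes differ in them. RefSeq start sites (GRCm38.p6) were matched for 9 of 9 genes in 12 windows, and the 250 bases before each start were searched on both strands. The ISRE was searched as GAAA and GAAA with NN between them, and GAS as TTCNNNGAA, which is its own reverse complement. An ISRE match lay before 4 genes, Ifit1, Ifit3, Bst2 and Stat2, and in 2.98% of 32851 windows of the same length. A GAS match lay before 3 genes, Ifit2, Bst2 and Irf1, and in 7.02% of all windows. For both elements the members are counted by gene and the percentages by window, and Ifit2, Irf1 and Irf9 had 2 windows each. Neither string lay before Oasl1, Irf7 or Irf9, which says only that these letters are not in these windows. The RefSeq starts can differ from the GENCODE gene positions given below. For Irf9 they were 55603985 and 55604579, with both windows inside the GENCODE gene (55603571 to 55610030), so the bases before it were not searched. The RefSeq start of Irf7, 141266424, also lay inside its GENCODE gene, which ends at 141266481 on the minus strand. The stretches below run 5′ to 3′ on the strand of the gene, all upstream of the annotated start, with the matches in capitals. In Ifit1, Ifit3 and Stat2 the ISRE lies in the opposite orientation, so its reverse complement is what reads here. In Bst2 a GAS match and a pair of ISRE matches overlap, so the capitals form a single block.
Ifit1, chr19:34640760-34640838, plus strand: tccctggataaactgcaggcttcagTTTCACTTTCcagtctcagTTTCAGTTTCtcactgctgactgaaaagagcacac
Ifit3, chr19:34583348-34583441, plus strand: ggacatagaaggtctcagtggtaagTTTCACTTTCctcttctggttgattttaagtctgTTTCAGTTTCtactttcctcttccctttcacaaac
Stat2, chr10:128270251-128270310, plus strand: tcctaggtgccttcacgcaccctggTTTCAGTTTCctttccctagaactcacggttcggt
Bst2, chr8:71537562-71537633, minus strand: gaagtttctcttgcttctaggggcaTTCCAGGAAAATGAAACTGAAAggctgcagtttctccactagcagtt
Irf1, chr11:53769899-53769957, plus strand: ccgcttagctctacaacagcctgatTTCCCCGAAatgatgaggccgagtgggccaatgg
Ifit2, chr19:34550444-34550486, plus strand: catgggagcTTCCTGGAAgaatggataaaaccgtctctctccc

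**Figure D1:**
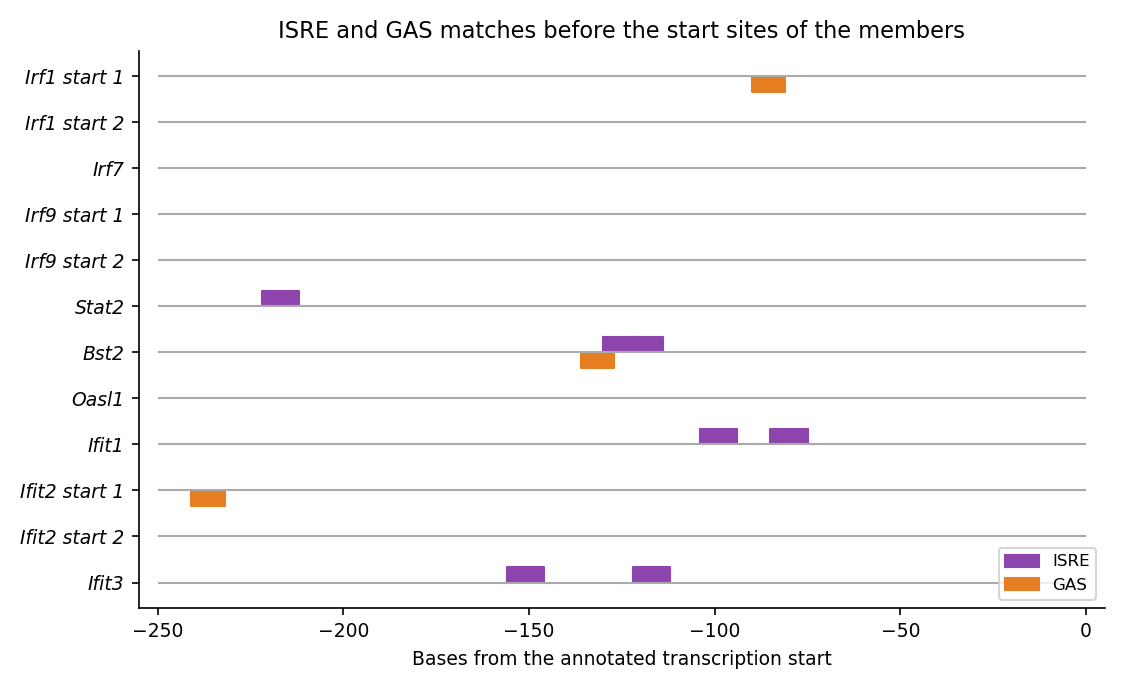
Positions of ISRE (purple, above the line) and GAS (orange, below the line) matches in the 250 bases before each RefSeq start site of the 9 genes, one line per start site; the x axis is the distance from the start in bases. Ifit1 and Ifit3 each hold a pair of ISRE matches, and in Bst2 the ISRE and GAS matches overlap.

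Levels are in TPM, transcripts scaled to transcript length and to a fixed library total, so they can be compared between genes; the depth of the libraries is unknown. Tests used limma on log2(TPM + 1) over the 11549 genes with at least 1 TPM in at least 2 libraries, with Benjamini-Hochberg adjustment and a threshold of 0.05. The targeted gene, Pthlh, was low even in shNT, at 0.752 and 0.966 TPM, against 0 and 0.106 under hairpin 1 and 0.0423 and 0.263 under hairpin 2. In the fit without the expression filter it was lower by -0.82 (log2; limma adjusted p = 0.0345) with hairpin 1 and by -0.69 (0.133) with hairpin 2. With hairpin 1, 32.1% of tested genes were called higher and 18.1% lower (50.2% in all); with hairpin 2 these were 6.62% and 3% (9.63% in all). The small-RNA entry Mir6236 held 24.3% to 34.1% of all TPM in shNT and 19.7% to 23.4% in the hairpin libraries. The median tested gene lay at 0.11 (log2) with hairpin 1 and 0.09 with hairpin 2 in deposited TPM. After removal of small-RNA entries these medians were -0.06 and -0.03, and the calls with hairpin 1 went from 3702 higher and 2096 lower to 1713 and 2825 (2765 and 2683 after median-ratio scaling). With hairpin 2 they went from 765 higher and 347 lower to 147 and 373 (232 and 543 after median-ratio scaling). These backgrounds also depended on single libraries. Without the first or the second hairpin 1 library, 2179 or 2296 genes were higher and 1525 or 1414 lower with hairpin 1. With hairpin 2, leaving out its first or second library left 6 genes higher with no lower call, or 8 higher and 3 lower. Leaving out a hairpin 1 library, which changes only the shared spread and the genes tested, left 59 higher and 60 lower or 53 and 56 there, and leaving out shNT replicate 2 gave 2102 and 545. Changes of the 6 members that were tested are therefore also given relative to the median tested gene where they are called.

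Bst2, Oasl1 and Ifit2 were called higher with hairpin 1, and Ifit2 with hairpin 2 as well. The factors Irf1, Irf9 and Stat2 passed the test with neither hairpin. Over 16 alternative settings the hairpin 1 call held in 16 for Oasl1, 14 for Bst2 and 13 for Ifit2. The hairpin 2 call of Ifit2 held in 7. Irf7, Ifit1 and Ifit3 stayed under 0.41 TPM in every library. In the order of mean level over the 6 libraries the genes ran Bst2 (52.1 TPM), Oasl1 (18.8), Irf1 (11.2), Irf9 (4.34), Ifit2 (3.32), Stat2 (1.73), Ifit3 (0.214), Irf7 (0.164) and Ifit1 (0.0855). Neighbours in that order whose library values overlapped were Oasl1 with Irf1, Irf9 with Ifit2, Ifit3 with Irf7 and Irf7 with Ifit1.

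**Figure D2:**
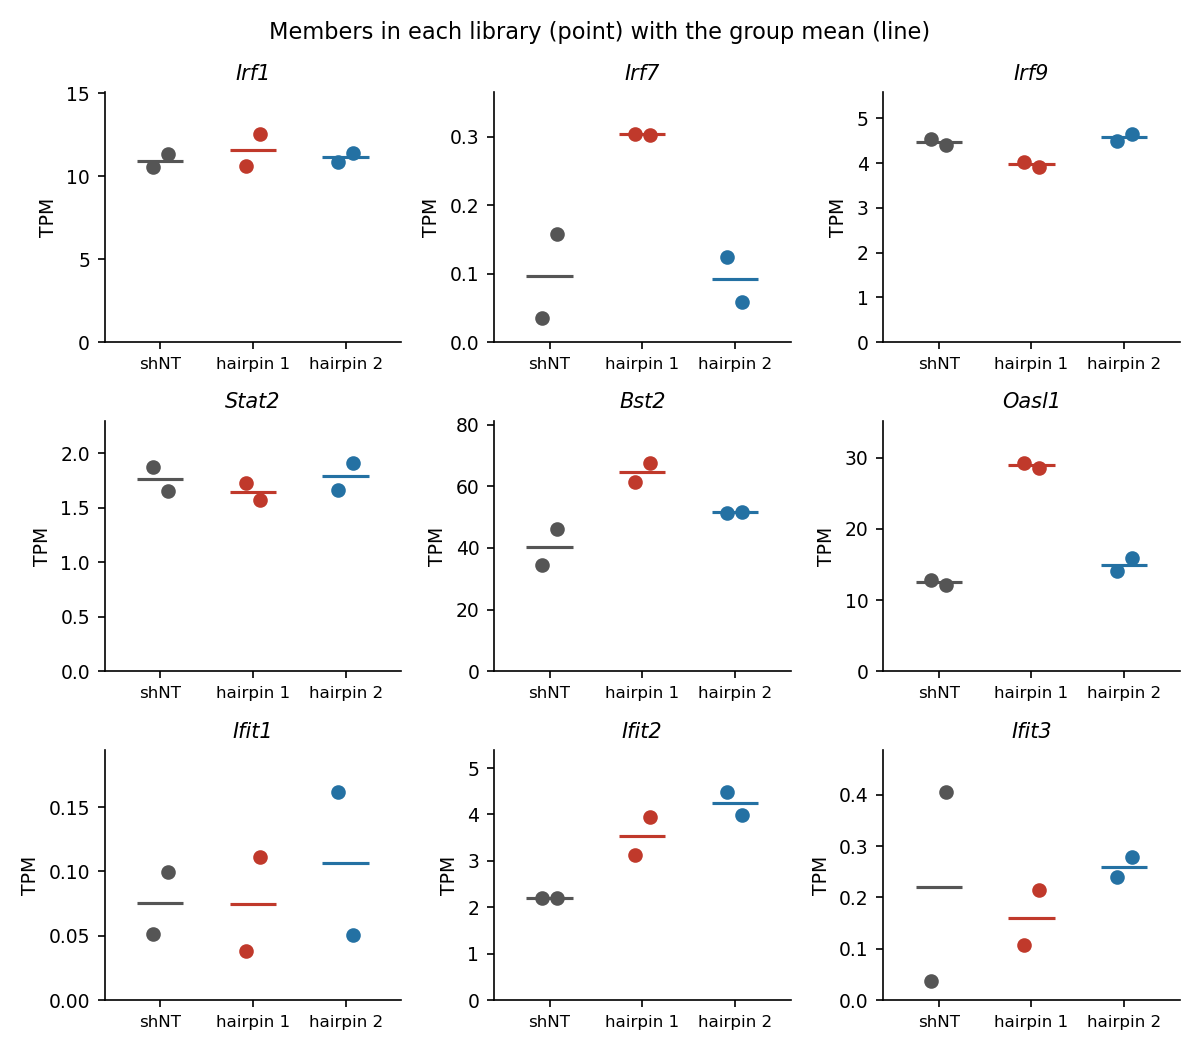
TPM of each of the 9 genes (y axis, from 0, a separate scale per panel) in the shNT, hairpin 1 and hairpin 2 libraries; points are libraries and lines are group means (n = 2). Bst2, Oasl1 and Ifit2 lie above shNT in all 4 hairpin libraries, and Irf7, Ifit1 and Ifit3 lie near 0. Of tested genes, 48.8% lie above both shNT libraries with hairpin 1 and 45.5% with hairpin 2.

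Among the factors, Irf1 (chromosome 11, 53770014 to 53778374, plus strand, mm10) is itself an early target of interferon-gamma signalling. It was at 10.5 and 11.3 TPM in shNT, against 10.6 and 12.6 under hairpin 1 and 10.9 and 11.4 under hairpin 2. The 3 groups overlapped. Its change was 0.07 (log2; 95% interval -0.15 to 0.29; limma adjusted p = 0.540) with hairpin 1 and 0.02 (-0.20 to 0.25; adjusted p = 0.875) with hairpin 2, and both turned sign after median-ratio scaling, without small-RNA entries and with each chromosome centred.

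Stat2, the STAT protein particular to type I and type III interferon signalling, lies on chromosome 10 (128270559 to 128292849, plus strand). It was at 1.87 and 1.66 TPM in shNT, against 1.73 and 1.57 under hairpin 1 and 1.66 and 1.91 under hairpin 2, again with overlapping groups. The change was -0.06 (log2; 95% interval -0.32 to 0.20; limma adjusted p = 0.653) with hairpin 1 and 0.01 (-0.25 to 0.28; adjusted p = 0.950) with hairpin 2.

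Irf9, the DNA-binding subunit of ISGF3, lies on chromosome 14 (55603571 to 55610030, plus strand). It was at 4.54 and 4.41 TPM in shNT, against 4.03 and 3.92 under hairpin 1 and 4.49 and 4.66 under hairpin 2. Both hairpin 1 libraries lay below both shNT libraries, as was so for 28.1% of tested genes, while hairpin 2 overlapped shNT (16.3% of tested genes lay below both shNT libraries there). The change with hairpin 1 was -0.14 ± 0.07 (log2, SE), or -0.24 relative to the median gene, and did not pass (limma adjusted p = 0.136); it passed after median-ratio scaling (-0.21, limma adjusted p = 0.0458), in a range of 0.0458 to 0.341 over 16 alternatives. With hairpin 2 it was 0.03 (95% interval -0.14 to 0.19; limma adjusted p = 0.809). Irf9 shares 123 exonic bases with Rnf31 on the same strand, and Irf1 shares 135 with Gm17334 on the opposite strand, so reads from those bases may not be told apart.

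Irf7 (chromosome 7, 141262706 to 141266481, minus strand), the amplifying factor, was at 0.0347 and 0.158 TPM in shNT, against 0.304 and 0.303 under hairpin 1 and 0.124 and 0.0588 under hairpin 2. Both hairpin 1 libraries lay above both shNT libraries, and hairpin 2 overlapped shNT, all at levels under the expression filter. Of the genes that passed that filter, 48.8% lay above both shNT libraries with hairpin 1. In the fit without that filter the Irf7 change was 0.25 ± 0.07 (log2, SE; limma adjusted p = 0.107) with hairpin 1 and -0.00 with hairpin 2, and neither passed. The hairpin 1 change passed in 1 of 16 alternatives, chosen after the data were seen, in which genes at 0 in all libraries were left out (limma adjusted p = 0.0445); the range over the 16 was 0.0445 to 0.322. Irf7 shares 45 exonic bases with Phrf1 on the opposite strand.

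The called changes were among the effectors. Of the 6 genes that passed the expression filter, 3 were called higher with hairpin 1 (Bst2, Oasl1 and Ifit2) and limma called 0 lower, also at an unadjusted p under 0.05. The median of the 6 was 0.28 (log2), against 0.11 for all tested genes, and 50% of so few genes is read beside the 32.1% of all tested genes. With hairpin 2, 1 of the 6 was called higher, beside 6.62% of all tested genes, and limma called 0 lower. At an unadjusted p under 0.05, limma had 3 higher and 0 lower. The share of all tested genes at an unadjusted p under 0.05 is not given here for any comparison, so such counts are not read as a result. The median of the 6 was 0.13, against 0.09.

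Oasl1 (chromosome 5, 114923240 to 114937915, plus strand) encodes a protein related to the oligoadenylate synthetases that is known to restrain translation of Irf7. It was at 12.8 and 12.1 TPM in shNT, against 29.3 and 28.6 under hairpin 1 and 14.0 and 15.9 under hairpin 2. The hairpin 1 libraries stood clear of all the others, and hairpin 2 lay just above shNT without overlap. Both libraries lay above both shNT libraries for 48.8% of tested genes with hairpin 1 and for 45.5% with hairpin 2. With hairpin 1 the mean was 2.32 times that of shNT and the change 1.15 ± 0.07 (log2, SE; limma adjusted p = 0.000261), or 1.05 relative to the median gene. With hairpin 2 the change was 0.24 ± 0.07 (95% interval 0.07 to 0.42) and missed the threshold (limma adjusted p = 0.0840). The hairpin 1 call held under 16 of 16 alternatives, with a change of 1.00 to 1.21. The antisense gene Gm13822 shares 38 exonic bases with Oasl1.

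Bst2 (chromosome 8, 71534255 to 71537456, minus strand) encodes tetherin, a membrane protein that holds budding virus particles on the cell surface. It was at 34.4 and 46.2 TPM in shNT, against 61.4 and 67.6 under hairpin 1 and 51.4 and 51.7 under hairpin 2. The groups did not overlap, and the shNT libraries were the farthest apart. Of tested genes, 48.8% lay above both shNT libraries with hairpin 1 and 45.5% with hairpin 2. The change with hairpin 1 was 0.68 ± 0.14 (log2, SE; limma adjusted p = 0.00984), 0.57 relative to the median gene, with a mean 1.60 times that of shNT. This call was lost when the second hairpin 1 library was left out (limma adjusted p = 0.0612) and when no expression filter was used (0.0830), in a range of 0.000496 to 0.0830 over 16 alternatives. With hairpin 2 the change was 0.36 ± 0.14 (95% interval 0.02 to 0.70; limma adjusted p = 0.138). Leaving out shNT replicate 2, the higher of the controls, made it 0.57 and past the threshold (limma adjusted p = 0.00615).

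The Ifit genes lie side by side on chromosome 19 and encode tetratricopeptide proteins that bind viral RNA or other proteins, but their levels were far apart. Ifit2 (34550694 to 34576419, plus strand) was at 2.198 and 2.209 TPM in shNT, against 3.12 and 3.95 under hairpin 1 and 4.49 and 3.98 under hairpin 2. All 4 hairpin libraries lay above both shNT libraries. Of tested genes, 48.8% lay above both with hairpin 1 and 45.5% with hairpin 2. It rose by 0.49 ± 0.11 (log2, SE; limma adjusted p = 0.0159) with hairpin 1 and by 0.71 ± 0.11 (limma adjusted p = 0.0279) with hairpin 2, which is 0.39 and 0.62 relative to the median gene. Means were 1.60 and 1.92 times that of shNT.

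Both Ifit2 calls depended on single libraries and on the filter. The call with hairpin 1 was lost when its second library was left out (limma adjusted p = 0.0739), without small-RNA entries (0.0558) and without the expression filter (0.0872). The call with hairpin 2 was lost without the filter (limma adjusted p = 0.117), with the compared groups alone (0.0564) and after leaving out shNT replicate 1 (0.0506), the first (0.0573) or the second (0.0606) hairpin 1 library, or the first (0.167) or the second (0.146) of hairpin 2. It was also lost with genes at 0 in all libraries left out of the unfiltered fit (limma adjusted p = 0.0583), and it held in 7 of 16 alternatives. Genes of chromosome 19 lay at -0.17 (log2) relative to all genes with hairpin 1, and at -0.00 with hairpin 2. On the chromosomes of Oasl1 and Bst2 these values were 0.10 and 0.05 with hairpin 1 and -0.02 and 0.00 with hairpin 2.

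Ifit1 (34640871 to 34650009, plus strand) was at 0.0510 and 0.0998 TPM in shNT, against 0.0385 and 0.111 under hairpin 1 and 0.162 and 0.0508 under hairpin 2. Ifit3 (34583531 to 34588731, plus strand) was at 0.0367 and 0.406 TPM in shNT, against 0.107 and 0.214 under hairpin 1 and 0.240 and 0.280 under hairpin 2. The groups overlapped for both genes, at levels too low to read a change. Ifit3 is nearly identical to Ifit3b, which was at 0.0756 TPM at most, so the split between the pair is uncertain. Ifit1 and Ifit3, whose upstream stretches above carry a pair of separate ISRE matches each, were the lowest of the 5 effectors in every group.

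**Figure D3:**
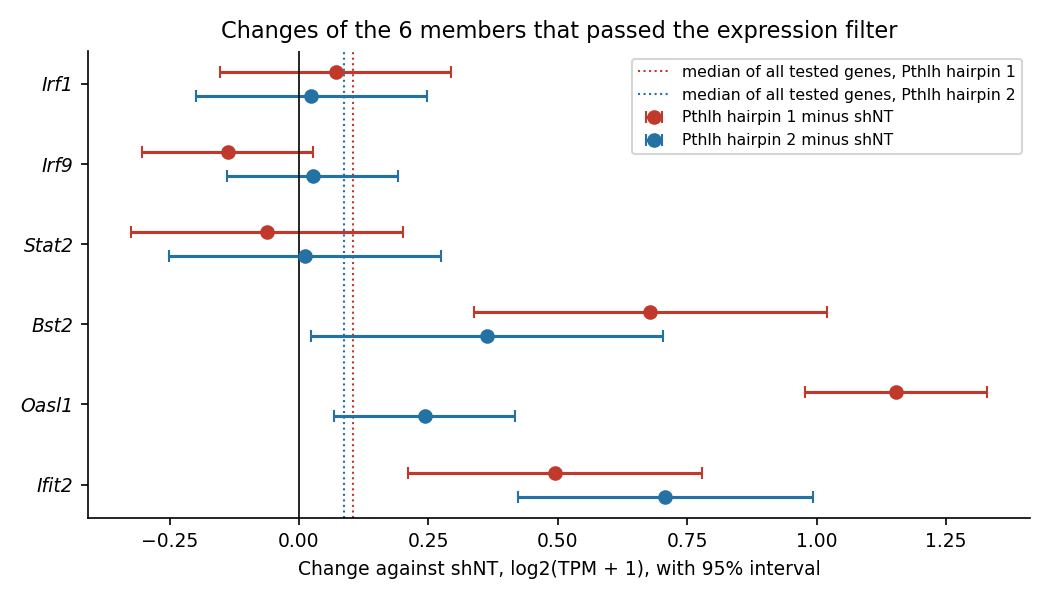
Change against shNT (x axis, log2(TPM + 1)) with its 95% interval for the 6 genes that passed the expression filter, for hairpin 1 (red) and hairpin 2 (blue); dotted lines mark the median of all tested genes. The intervals of Irf1, Irf9 and Stat2 span 0, and Oasl1 with hairpin 1 lies farthest to the right at 1.15.

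With the mean of both hairpins against shNT, the same 3 effectors were called higher, against 27.3% of all tested genes (12.1% lower, 39.4% in all), and limma called 0 of the 6 lower, also at an unadjusted p under 0.05. Oasl1 rose by 0.70 ± 0.06 (log2, SE; limma adjusted p = 0.00167), Ifit2 by 0.60 ± 0.10 (0.00814) and Bst2 by 0.52 ± 0.12 (0.0207). Bst2 was no longer called when the second hairpin 1 library (limma adjusted p = 0.0641) or the first (0.0586) or second (0.0618) of hairpin 2 was left out, and without the expression filter neither Bst2 (0.129) nor Ifit2 (0.0562) was. When the 4 hairpin libraries were pooled as a single group, limma called 0 of the 6, with 2 at an unadjusted p under 0.05. Of all 11549 tested genes that fit called 0 higher and 1 lower, so the 0 is not particular to these genes.

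The hairpins were then compared with each other, where 20.2% of tested genes were lower and 19.9% higher with hairpin 2 than with hairpin 1 (40.1% in all). Of the 6 genes, 1 differed: Oasl1 was lower with hairpin 2 by -0.91 (log2; 95% interval -1.09 to -0.74; limma adjusted p = 0.000688). Bst2 differed by -0.32 (95% interval -0.66 to 0.02; limma adjusted p = 0.121), and passed in the fits that left out shNT replicate 1 (limma adjusted p = 0.00682) or shNT replicate 2 (0.00672). For Ifit2 the difference was 0.21 (95% interval -0.07 to 0.50; limma adjusted p = 0.193) and for Irf9 0.16 (-0.00 to 0.33; adjusted p = 0.103). Irf1 and Stat2 differed by -0.05 (95% interval -0.27 to 0.18; limma adjusted p = 0.714) and 0.07 (-0.19 to 0.34; adjusted p = 0.617). Limma called 0 of the 6 higher with hairpin 2, also at an unadjusted p under 0.05.

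The rest of the interferon pathway was described from lists of 136 other genes, of which 60 passed the expression filter. With hairpin 1, 25 of these 60 were higher and 6 lower, 41.7% and 10%, beside 32.1% and 18.1% of all tested genes, with a median of 0.21 (log2) beside 0.11. Median-ratio scaling made these counts 18 and 8, beside 2765 and 2683 of all 11538 tested genes. Removing small-RNA entries made them 11 and 9 of 62, beside 1713 and 2825 of 11611. Centring each chromosome made them 23 and 2, beside 3396 and 1651 of 11549. Leaving out the first or the second hairpin 1 library left 13 or 16 higher and 4 lower. With hairpin 2, 4 were higher and 3 lower, 6.67% and 5%, beside 6.62% and 3% of all tested genes. Their median was 0.05, beside 0.09. After median-ratio scaling 1 was higher and 3 were lower, beside 232 and 543 of 11538 tested genes. Without small-RNA entries these were also 1 and 3, beside 147 and 373 of 11611. The share of all called genes that stay called under every setting was not computed, so the next counts have no background beside them. Of the 31 calls with hairpin 1, of which 25 were higher, 11 kept their direction and passed under all 10 settings tried for this list, 10 of them higher. No call of the 7 with hairpin 2 did so. Most or all of them were lost when a hairpin library was left out, as were most calls over all tested genes, given above.

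Interferon ligands were at or near 0. Of 21 type I, II and III interferon genes, 18 were listed at 0 in all 6 libraries, and the highest value was 0.906 TPM, for Ifna13 in a single hairpin 2 library. Ifnb1, an early type I interferon of infected cells, was at 0.0907 TPM in a single hairpin 1 library and listed at 0 in the others.

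All 9 receptors and kinases passed the filter. With hairpin 1, 3 fell and 1 rose (Ifngr1), beside 18.1% lower and 32.1% higher of all tested genes. With hairpin 2, 2 fell and 7 did not pass, beside 3% lower and 6.62% higher of all tested genes. These counts moved with the setting. With each chromosome centred 3 rose and 1 fell with hairpin 1, beside 3396 and 1651 of 11549 tested genes. Without small-RNA entries 3 fell and the others did not pass, beside 2825 lower and 1713 higher of 11611. With hairpin 2, the calls were lost when any 1 of the 4 hairpin libraries was left out, as were most calls over all tested genes. The Ifngr1 call was lost without small-RNA entries, with the chromosomes centred and without the first hairpin 1 library (limma adjusted p up to 0.474). Jak2, a kinase of the interferon-gamma receptor and of cytokine receptors, was at 36.7 and 34.5 TPM in shNT, against 20.7 and 19.6 under hairpin 1 and 24.1 and 26.1 under hairpin 2. All 4 hairpin libraries lay below shNT. Of tested genes, 28.1% lay below both shNT libraries with hairpin 1 and 16.3% with hairpin 2. Jak2 changed by -0.79 ± 0.06 (log2, SE; limma adjusted p = 0.000506) with hairpin 1, a call kept under all 10 settings. With hairpin 2 it changed by -0.49 ± 0.06 (limma adjusted p = 0.0196), a call lost when any 1 of the 4 hairpin libraries was left out (limma adjusted p up to 0.145).

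The type I receptor subunits were present in every library. Ifnar2 was at 30.3 and 32.3 TPM in shNT, against 23.7 and 21.9 under hairpin 1 and 28.2 and 29.2 under hairpin 2. It changed by -0.44 ± 0.06 with hairpin 1 (log2, SE; limma adjusted p = 0.00263), a call lost when each chromosome was centred (0.157). Ifnar1 was lower with hairpin 1 by -0.26 (limma adjusted p = 0.0254), a call lost without shNT replicate 1 or any 1 of the hairpin libraries, and its direction turned with the chromosomes centred. Ifngr2, a subunit of the interferon-gamma receptor, was at 56.3 and 48.1 TPM in shNT, against 61.6 and 59.0 under hairpin 1 and 36.5 and 39.5 under hairpin 2. The hairpins lay on opposite sides of shNT and differed by -0.65 ± 0.09 (limma adjusted p = 0.00319). Against shNT, Ifngr2 did not pass with hairpin 1. With hairpin 2 it changed by -0.44 (limma adjusted p = 0.0377), a call kept under 5 of the 10 settings. Of tested genes, 48.8% lay above both shNT libraries with hairpin 1, and 16.3% below both with hairpin 2.

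Of the other STAT and IRF factors that passed the filter, 6 of 8 rose with hairpin 1, beside 32.1% of all tested genes, and the other two did not pass; leaving out the first hairpin 1 library left 3. Irf3, the factor that nucleic acid sensors activate, was at 8.11 and 10.4 TPM in shNT and 14.8 and 15.5 under hairpin 1, a rise of 0.66 ± 0.11 (limma adjusted p = 0.00525). Stat6, the mediator of interleukin-4 signals, rose by 0.58 ± 0.05 (limma adjusted p = 0.000554) with hairpin 1. With hairpin 2 it rose by 0.26 (limma adjusted p = 0.0336), a call kept under 2 of the 10 settings.

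Among the nucleic acid sensors and their adaptors 5 of 10 rose with hairpin 1, beside 32.1% of all tested genes, and the other 5 did not pass. Without the second hairpin 1 library 3 rose, and without small-RNA entries 2 did, beside 1713 of 11611 tested genes. Aim2, a sensor of cytosolic DNA, was at 0.411 and 0.401 TPM in shNT, against 2.03 and 2.24 under hairpin 1 and 1.18 and 0.764 under hairpin 2, and rose by 1.15 ± 0.14 (log2, SE; limma adjusted p = 0.00193) with hairpin 1. Mb21d1, which encodes the DNA sensor cGAS, was at 1.41 and 1.41 TPM in shNT, against 1.85 and 2.11 under hairpin 1 and 0.452 and 0.683 under hairpin 2. The hairpin groups lay on either side of shNT and differed by -0.93 ± 0.12 (log2, SE, limma adjusted p = 0.00336). Against shNT, Mb21d1 did not pass with hairpin 1. With hairpin 2 it changed by -0.63 (limma adjusted p = 0.0402), a call kept under 3 of the 10 settings. Of tested genes, 48.8% lay above both shNT libraries with hairpin 1, and 16.3% below both with hairpin 2. Ticam1, the adaptor of Tlr3, rose by 0.54 ± 0.09 (limma adjusted p = 0.00527) with hairpin 1.

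Of 61 other effectors 41 stayed under 1 TPM in every library. Among them were Isg15, a ubiquitin-like protein often used to read interferon responses, at 0 to 0.720 TPM, and, named after their values were seen, the antiviral genes Mx1 (0.343 to 0.803 TPM) and Rsad2 (0.146 to 0.284 TPM). Of the 20 that passed the filter, 10 rose with hairpin 1, beside 32.1% of all tested genes, and the other 10 did not pass; without the first hairpin 1 library 6 rose, and without small-RNA entries 5 rose and 1 fell of 22. Of all 11611 genes tested without small-RNA entries, 1713 rose and 2825 fell with hairpin 1. Ifi27 was at 2.71 and 2.52 TPM in shNT, against 6.66 and 6.75 under hairpin 1 and 5.52 and 6.02 under hairpin 2. Like Ifit2 it stood higher in all 4 hairpin libraries, beside the same shares of tested genes (48.8% with hairpin 1 and 45.5% with hairpin 2). Ifi27 rose by 1.09 ± 0.07 (log2, SE; limma adjusted p = 0.000328) with hairpin 1 and by 0.91 ± 0.07 (limma adjusted p = 0.00844) with hairpin 2, the latter lost when either hairpin 2 library was left out (limma adjusted p up to 0.0779).

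Lgals3bp, a secreted galectin-binding glycoprotein, was high with hairpin 1 and not with hairpin 2. It was at 12.9 and 10.2 TPM in shNT, against 63.1 and 59.2 under hairpin 1 and 12.3 and 11.8 under hairpin 2. Hairpin 2 lay inside the range of shNT. Lgals3bp rose by 2.32 ± 0.11 (log2, SE; limma adjusted p = 0.000122) with hairpin 1 and differed between hairpins by -2.25 ± 0.11 (limma adjusted p = 0.000173). Samd9l, an antiviral restriction factor, rose by 1.11 ± 0.08 (limma adjusted p = 0.000453) with hairpin 1, from 5.61 and 5.30 TPM to 13.9 and 12.0. With hairpin 2 Samd9l was at 7.39 and 7.72 TPM and rose by 0.41 (limma adjusted p = 0.0424), a call kept under 0 of the 10 settings. Ifi30, a lysosomal thiol reductase, rose by 0.66 ± 0.04 (limma adjusted p = 0.000308) with hairpin 1, from 54.4 and 56.7 TPM to 88.2 and 89.0. With hairpin 2 Ifi30 was at 67.1 and 68.8 TPM and rose by 0.29 (limma adjusted p = 0.0252), a call kept under 3 of the 10 settings.

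Negative regulators were mixed: with hairpin 1, 3 of 13 rose and 3 fell, beside 32.1% and 18.1% of all tested genes, and with hairpin 2 all 13 failed to pass. Without small-RNA entries, 5 fell with hairpin 1 and the others did not pass, and leaving out either hairpin 1 library left 2 that fell and no riser. Of all 11611 genes tested without small-RNA entries, 2825 fell and 1713 rose with hairpin 1. Samhd1, a nucleotide hydrolase, was at 19.6 and 18.9 TPM in shNT, against 15.9 and 14.8 under hairpin 1 and 22.0 and 21.6 under hairpin 2. It changed by -0.31 ± 0.05 (log2, SE; limma adjusted p = 0.00616) with hairpin 1, turned direction when each chromosome was centred, and differed between the hairpins by 0.48 ± 0.05 (limma adjusted p = 0.00198). Socs3, a feedback inhibitor of JAK kinases, changed by -0.20 ± 0.05 (limma adjusted p = 0.0237) with hairpin 1, a call lost without shNT replicate 2, the first hairpin 1 library or either hairpin 2 library (limma adjusted p up to 0.123).

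**Figure D4:**
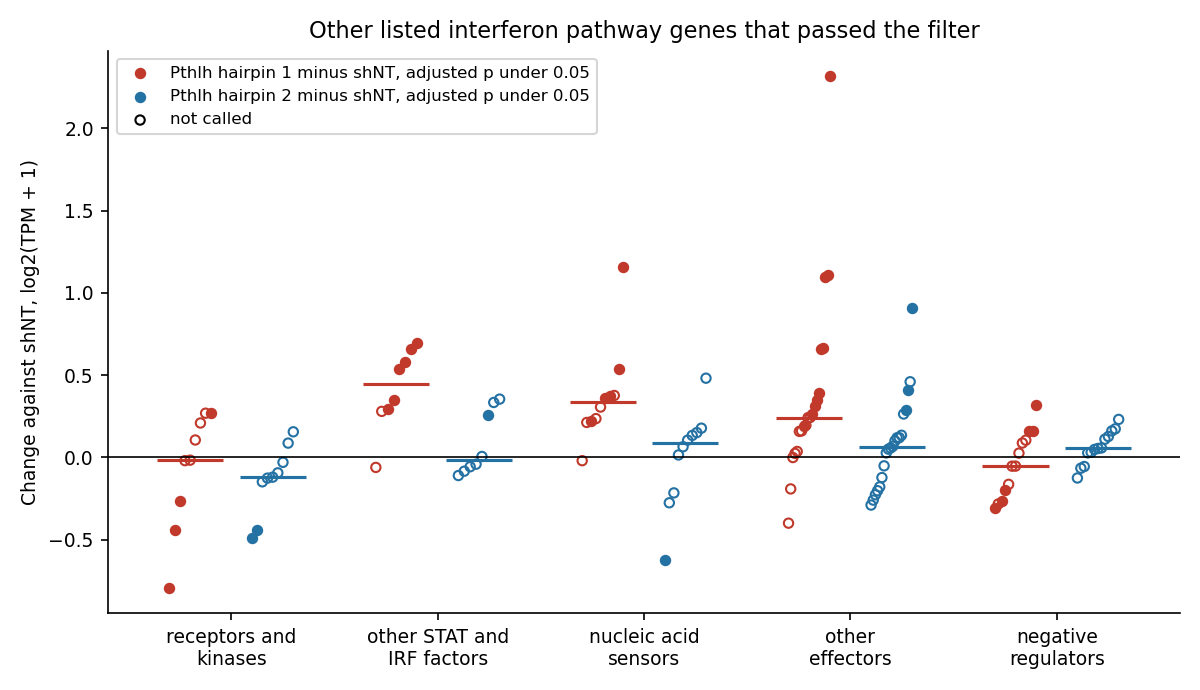
Change against shNT (y axis, log2(TPM + 1)) of the 60 listed pathway genes that passed the filter, by list, for hairpin 1 (red) and hairpin 2 (blue); filled points passed the adjusted p threshold of 0.05, open points did not, and lines are list medians. Most filled points belong to hairpin 1, with Lgals3bp the highest at 2.32.

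Genes whose log2(TPM + 1) values ran most like those of Irf9 over the 6 libraries were Ptgs1 (Pearson r = 0.997), Ddx18 (0.997) and Ankrd49 (0.993), out of 3093 genes compared, of which 246 exceeded r = 0.95. For Oasl1, added after its values were seen, the nearest were Sh2d4a (r = 1.00), Ubqln2 (0.999) and Etfdh (0.998), with 637 of 3092 genes over 0.95. For Ifit2, added in the same way, the nearest were Llgl2 (0.983), Cenpl (0.975) and Aldh1a1 (0.964), and 6 genes exceeded 0.95. All points share the same 6 libraries and their scaling. Irf7 and Ifit1 were too low for their likeness to other genes to be read.

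Markers of other cell types were checked because immune cells also express Bst2 and the Ifit genes. Of 10 ductal markers 8 passed the filter, with Krt8 at 1315 to 1818 TPM, while Epcam and Cldn4 were under 0.61 TPM in every library. With hairpin 1, 4 of the 8 were higher and 3 lower, beside 32.1% and 18.1% of all tested genes. Krt19 was at 2.32 and Sox9 at 1.80 times the shNT mean, while Krt18, Krt7 and Cdh1 fell. With hairpin 2, 2 of the 8 were lower and 0 higher, beside 3% and 6.62% of all tested genes. Spp1 stood there at 0.62 and Muc1 at 0.80 times the shNT mean, and the others of the 8 at 0.91 to 1.02. Summed ductal markers were at 5424 to 5531 TPM in shNT, 5746 to 5798 with hairpin 1 and 4638 to 4756 with hairpin 2, and the part of this shift in the result was not tested. Of 12 myeloid markers 9 stayed under 1 TPM in all libraries, and Adgre1, Tyrobp and C1qa were listed at 0; the leukocyte gene Ptprc was at 0.0251 to 0.0495 TPM. Cd14, at 59.4 to 77.5 TPM, made up most of a summed myeloid level of 69.7 to 72.2 in shNT, 77.0 to 79.5 with hairpin 1 and 63.2 to 63.9 with hairpin 2. The 6 markers of plasmacytoid dendritic cells summed to 3.74 to 4.23 TPM in shNT, 5.51 to 5.71 with hairpin 1 and 4.93 to 5.05 with hairpin 2, mostly from Tcf4, at 3.14 to 3.69, 5.13 to 5.29 and 3.89 to 4.33 TPM in the same order. Irf8 and Siglech, under 0.41 TPM throughout, did not follow that order: Irf8 was at 0.0353 and 0.128 TPM with hairpin 1 against 0.322 and 0.238 in shNT, and Siglech was highest with hairpin 2. Ly6d was listed at 0. The part of the sum in the result was not tested. Summed lymphocyte markers reached 0.543 TPM, with Cd3e, Cd3g, Nkg7 and Ncr1 listed at 0, fibroblast markers 0.522 and endothelial markers 0.117. In bulk RNA, fewer cells with a transcript and less transcript per cell cannot be told apart.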

How the data were processed

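The authors deposited TPM values per gene, which sum to 1000000 in each library. Salmon, R 3.5 and DESeq2 with the mm10 build are named per the submitters' processing notes, without roles; strand handling and annotation are not given in the sources used here. Columns were matched to samples by group and replicate number. Values were tested with limma 3.58.1 in R 4.3.3, with 3 group means over 6 libraries, a pseudocount of 1 and a variance prior that followed mean expression; the model was tested on simulated data. Irf7, Ifit1, Ifit3 and Pthlh, below the filter, were tested in the same model over all 24493 genes. A fit that left out genes at 0 in all libraries (18323 genes kept) was added after the data were seen. The members and lists were chosen with earlier results of these data known. Named genes were the 9 members, Pthlh, up to 6 genes per list with the smallest p in either hairpin comparison, a fixed few (Isg15, Ifnb1, Ifnar1, Ifnar2, Ifit3b and others), and the 3 genes most like Irf7, Irf9 and Ifit1; not all are reported here. Alternatives were other pseudocounts, no filter, other scalings, chromosome centring, no variance trend, a replicate block, fewer groups and each library left out. Positions are from GENCODE M21 and promoters from RefSeq, both on that build.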

Additional observations from a re-analysis of the deposited data

Results flagged for a closer look

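The effects of the hairpins on Oasl1 differed by the test of the difference itself: hairpin 2 lay at -0.91 (log2) relative to hairpin 1 (limma adjusted p = 0.000688), with 29.3 and 28.6 TPM under hairpin 1 and 14.0 and 15.9 TPM under hairpin 2. The difference passed under 16 of 16 alternatives, from -0.99 to -0.80.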

How the results depend on the processing

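Over 16 alternatives, 1 of them added after the data were seen, 500 values of single genes kept their direction and side of the threshold, 22 lost their call, 7 gained one and 47 changed sign. No value that changed sign had passed the test, before or after. After median-ratio scaling Irf1 was at -0.012 with hairpin 1, -0.066 with hairpin 2 and -0.039 with the mean of both, Irf9 at -0.054 and Stat2 at -0.051 with hairpin 2, and Ifit3 at -0.013 with the mean; 1 gene, Irf9, was then called lower with hairpin 1. Without small-RNA entries Irf1 was at -0.096, -0.10 and -0.098 in the same order, Irf9 at -0.088 and Stat2 at -0.084 with hairpin 2, and Ifit3 at -0.0095 with the mean. With each chromosome centred Irf1 was at -0.0054, -0.023 and -0.014, Stat2 at -0.015 with hairpin 2, Ifit1 at 0.16 and Ifit3 at 0.11 with hairpin 1, and Ifit1 at -0.12 and Ifit3 at -0.040 between the hairpins; 1 gene, Irf9, was then called higher with hairpin 2 than with hairpin 1. With a pseudocount of 0.1 Irf7 was at 0.019 with hairpin 2.

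Without the expression filter 1 gene was called higher with hairpin 1 (3 with it), 0 with hairpin 2 (1 with it) and 1 with the mean (3 with it). Of all 24493 genes, 2604, 235 and 1725 were then higher in the same order. With genes at 0 in all libraries left out of that fit, 0 were called higher with hairpin 2, beside 374 of 18323 genes. The count with hairpin 2 was also 0 with a replicate block, beside 163 of 11549 tested genes. With the compared groups alone it was 0 as well, beside 65 of 11286. Of these 4 fits with hairpin 2, limma had 3 genes at an unadjusted p under 0.05 with the block and 2 in the others. With both hairpins pooled as 1 group the count was 0 (2 at an unadjusted p under 0.05). That fit called 0 higher and 1 lower of all 11549 tested genes. With hairpin 1 and hairpin 2 fitted alone 2 genes were lower with hairpin 2, beside 2930 of 11387 tested genes. The replicate block ended the Ifit2 call with hairpin 2 (limma adjusted p = 0.0563; range over 16 alternatives 0.0270 to 0.167) and changed no other call of the 9 genes; with hairpin 2 it left 163 of all tested genes higher and 113 lower, and 1 and 1 of the 60 other pathway genes; replicate numbers carried little shared deviation (r = 0.0211, 0.0152 and -0.0439 across genes), so libraries share only a number.

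With single libraries left out, 1 to 3 genes were called higher with hairpin 1, 0 to 2 with hairpin 2 and 2 to 3 with the mean, and 1 to 2 were lower with hairpin 2 than with hairpin 1. Changes then ranged with hairpin 1 from -0.043 to 0.18 for Irf1, -0.050 to 0.047 for Ifit1 and -0.28 to 0.16 for Ifit3. With hairpin 2 they ranged from -0.024 to 0.072 for Irf1, -0.085 to 0.077 for Irf7, -0.053 to 0.077 for Stat2, -0.033 to 0.11 for Ifit1 and -0.16 to 0.28 for Ifit3. With the mean they ranged from -0.0093 to 0.10 for Irf1, -0.081 to 0.032 for Stat2, -0.017 to 0.055 for Ifit1 and -0.22 to 0.22 for Ifit3, and between hairpins from -0.16 to 0.067 for Irf1 and -0.032 to 0.11 for Ifit1. The cause was not tested. Depth is unknown, so no floor can be given for Irf7, Ifit1 and Ifit3.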
